A study of Mus musculus with 6 samples.

Results

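Neurexins, neuroligins and the leucine-rich repeat transmembrane (Lrrtm) proteins are the adhesion molecules that join the sending and the receiving side of a synapse. The 7 genes described here are Nrxn2, Nrxn3, Nlgn1, Nlgn2, Nlgn3, Lrrtm1 and Lrrtm2, chosen by name from 52550 genes in the count table, together with the 42 alternative splicing events listed for them among 40961. Hippocampal RNA made up 3 control libraries, titled WT, and 3 knockdown libraries, titled hnRNPDL-KD. The latter are labelled L-DL KD here, since the study knocked down L-DL. L-DL is the long isoform of the RNA-binding protein hnRNP D-like, encoded by Hnrnpdl. By the study's methods, the animals were male C57BL/6 J mice of wild-type genotype. They were injected at 8 weeks of age into the CA1 area of both hemispheres with adeno-associated virus (AAV). The library titles do not name the virus. The virus carried control shRNA or several L-DL shRNAs in tandem, each driven by the H1 promoter, which is active in any transduced cell, while the zsGreen reporter was driven by the neuronal CamkIIα promoter. The control virus was given at a higher titre than the L-DL virus. The labels name the hippocampus as the tissue, and transduced cells were not separated in the sources used here. The sources used here do not say whether a library came from 1 mouse or from pooled mice, so p-values measure the spread between these libraries.

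Neurexins sit on the presynaptic membrane and bind neuroligins, Lrrtm proteins and other partners across the cleft. Their transcripts are spliced at several conserved sites, and the exon at splice site 4 (SS4) decides much of the choice of partner: Lrrtm proteins bind neurexins without the insert, cerebellins bind those with it, and neuroligins carry inserts of their own (A and B) that tune their binding. Nlgn1 is best known at excitatory synapses, Nlgn2 at inhibitory synapses and Nlgn3 at both, and Lrrtm1 and Lrrtm2 at excitatory synapses. The STAR family of RNA-binding proteins (Khdrbs1, Khdrbs2 and Khdrbs3, also called Sam68, SLM1 and SLM2) is known to promote skipping of the SS4 exon.

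The SS4 exon of Nrxn3 is shown first because SS4 was the site with the lowest p-values in these genes. The line reads 5′ to 3′ along the transcript, with the insert in capitals and 20 bases of the neighbouring exons on each side in lower case, from GENCODE transcripts on GRCm38.
Nrxn3 SS4: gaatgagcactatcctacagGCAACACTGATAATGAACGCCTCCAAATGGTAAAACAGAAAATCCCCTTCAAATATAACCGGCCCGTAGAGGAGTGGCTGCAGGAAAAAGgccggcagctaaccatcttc
It lies at chr12:90199147-90199236 on the plus strand and is exon 17 of transcript Nrxn3-201. It is 90 nt long, lies wholly in coding sequence and keeps the reading frame.

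The inserts of the neuroligins are shown for comparison, since they are the receptors' counterpart of SS4, and the last exon of splice site 1 (SS1) of Nrxn2 because its groups also lay apart. Capitals again mark the insert.
Nlgn1 insert A: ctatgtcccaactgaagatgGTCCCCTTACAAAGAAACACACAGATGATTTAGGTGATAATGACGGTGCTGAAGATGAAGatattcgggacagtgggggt
Nlgn3 downstream insert A: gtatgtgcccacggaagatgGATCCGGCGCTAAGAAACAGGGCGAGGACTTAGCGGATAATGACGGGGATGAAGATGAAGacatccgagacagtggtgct
Nlgn3 upstream insert A: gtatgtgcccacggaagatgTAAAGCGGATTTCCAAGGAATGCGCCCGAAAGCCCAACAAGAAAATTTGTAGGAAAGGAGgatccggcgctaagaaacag
Nlgn2 insert A: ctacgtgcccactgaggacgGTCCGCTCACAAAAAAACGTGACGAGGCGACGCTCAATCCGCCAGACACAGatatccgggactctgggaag
Nlgn1 insert B: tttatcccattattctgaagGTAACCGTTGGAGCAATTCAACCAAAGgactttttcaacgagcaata
Nrxn2 SS1 72 nt exon: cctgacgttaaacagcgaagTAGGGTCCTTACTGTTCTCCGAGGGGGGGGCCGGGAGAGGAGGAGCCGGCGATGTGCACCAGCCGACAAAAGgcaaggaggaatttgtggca
Insert A of Nlgn1 is at chr3:25920178-25920237 on the minus strand, and the downstream exon for insert A of Nlgn3 at chrX:101307075-101307134 on the plus strand. These 60 nt exons share 43 bases (71.7%). The upstream exon of Nlgn3, at chrX:101303072-101303131, is also 60 nt long and shares 16 of 60 bases (26.7%) with that of Nlgn1. Insert A of Nlgn2 has 51 nt at chr11:69830563-69830613 on the minus strand, and insert B of Nlgn1 has 27 nt at chr3:25439865-25439891, where a longer form of an exon is used. The SS1 exon of Nrxn2 has 72 nt at chr19:6450528-6450599.

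Counts summed over genes were 16052529 to 17913064 per library, and 17621 genes were tested. The targeted gene Hnrnpdl was not lower under the L-DL KD label. Its CPM values, gene counts relative to a library size scaled by edgeR's TMM, were 176, 184 and 171 in control and 217, 150 and 173 in L-DL KD libraries, with overlapping groups (log2 fold change 0.03, SE 0.12, edgeR adjusted p = 0.898). The gene count takes in every Hnrnpdl isoform, and the long one was not measured alone. The study assessed L-DL protein in the injected hippocampus by immunoblot, which was not analysed here. Every direction below is therefore that of libraries labelled L-DL KD against control, called L-DL KD libraries for short. Markers of cell types also differed between the groups. The summed level of 6 neuronal markers, of which 6 were lower, was 4494 to 4797 CPM in control and 2471 to 3151 CPM in L-DL KD libraries. That of 6 microglial markers, of which 6 were higher, was 734 to 936 CPM and 1619 to 1986 CPM. Other cell types were less uniform at an edgeR adjusted p under 0.05. Of inhibitory neuron markers 4 of 5 were lower, as were 2 of 3 CA1 pyramidal and 2 of 3 dentate granule markers. The rest, Pvalb, Fibcd1 and Prox1, were at log2 fold changes of 0.28, 0.31 and 0.29, not called. Of astrocyte markers 1 of 4 was higher and 2 lower, and higher were 1 of 4 oligodendrocyte and 2 of 3 endothelial markers. Over all tested genes 15.0% were lower and 15.6% higher. No marker was at 0 in any library. In bulk tissue, fewer neurons and less RNA per neuron cannot be told apart, and the part of these shifts in the results below was not tested.

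The splicing table gives, for each event, the junction reads of the form that includes a segment and of the form that skips it, from which the inclusion level (PSI, from 0 to 1) was computed after dividing by the effective length of each form. Its libraries carry no replicate numbers and are named here by position. Which group is which was taken from the study's definition of the difference and the sign convention of the table, and across 7163 genes the log ratio of junction reads followed that of gene counts (Pearson r = 0.92, a description across genes). Of the 42 events, 20 belong to Nrxn2, 8 to Nrxn3, 6 to Nlgn1, 1 to Nlgn2 and 7 to Nlgn3, and Lrrtm1 and Lrrtm2 have none. By type, 33 were skipped exons, 5 mutually exclusive exons, 3 alternative 5′ and 1 alternative 3′ splice sites. Several events describe the same exon with different neighbours and share reads. An event was tested when its reads averaged 20 or more per library and each form averaged 1 or more, which held for 27 events. Of the 15 others, 12 had a mean PSI above 0.9 in both groups.

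The inclusion level of the SS4 exon was higher in L-DL KD libraries in both neurexins, and these were the 2 events of the 27 with an unadjusted p under 0.05. Neither passed the adjusted threshold. Across all 18829 tested events, 13.3% had an unadjusted p under 0.05 and 0.255% an adjusted p under 0.05. The share among these genes, 2 of 27 or 7.41%, was thus no higher than that background, and 0 of 27 passed the adjusted test in edgeR. In limma 0 of all 18829 events passed the adjusted test, so it could not set these genes apart.

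In Nrxn2, SS4 PSI was 0.418, 0.432 and 0.412 in the control libraries and 0.566, 0.648 and 0.689 in those labelled L-DL KD. The groups did not overlap, and the lowest L-DL KD library lay above the highest control library. Means were 0.421 ± 0.010 and 0.634 ± 0.062 (SD, n = 3 each), a difference of 0.214. The counts behind these values were the deepest of the named inserts, with 253 to 331 inclusion and 226 to 288 skipping reads per control library, and 417 to 489 inclusion and 125 to 200 skipping reads per L-DL KD library. In edgeR the ratio of inclusion to skipping was higher by 1.26 on the log2 scale (SE 0.27, unadjusted p = 0.000487, adjusted p = 0.0781). The adjusted p ranged from 0.0494 to 0.279 over the alternatives, and it passed the threshold only without the L-DL KD library at position 1, which had the lowest inclusion of its group.

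In Nrxn3, SS4 PSI was 0.468, 0.437 and 0.448 in control and 0.767, 0.778 and 0.643 in L-DL KD libraries. These groups did not overlap either, and 1 L-DL KD library lay below the other 2. Means were 0.451 ± 0.016 and 0.729 ± 0.075 (SD, n = 3 each), a difference of 0.278. Fewer reads stood behind them, with 57 to 63 skipping reads per control library and 16 to 18 per L-DL KD library. The edgeR change was 1.76 on the log2 scale (SE 0.44, unadjusted p = 0.00183, adjusted p = 0.130), with an adjusted p of 0.111 to 0.349 over the alternatives. With 3 libraries against 3, a two-sided exact permutation test of PSI cannot give less than 0.1, and it gave 0.1 for each gene.

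**Figure D1:**
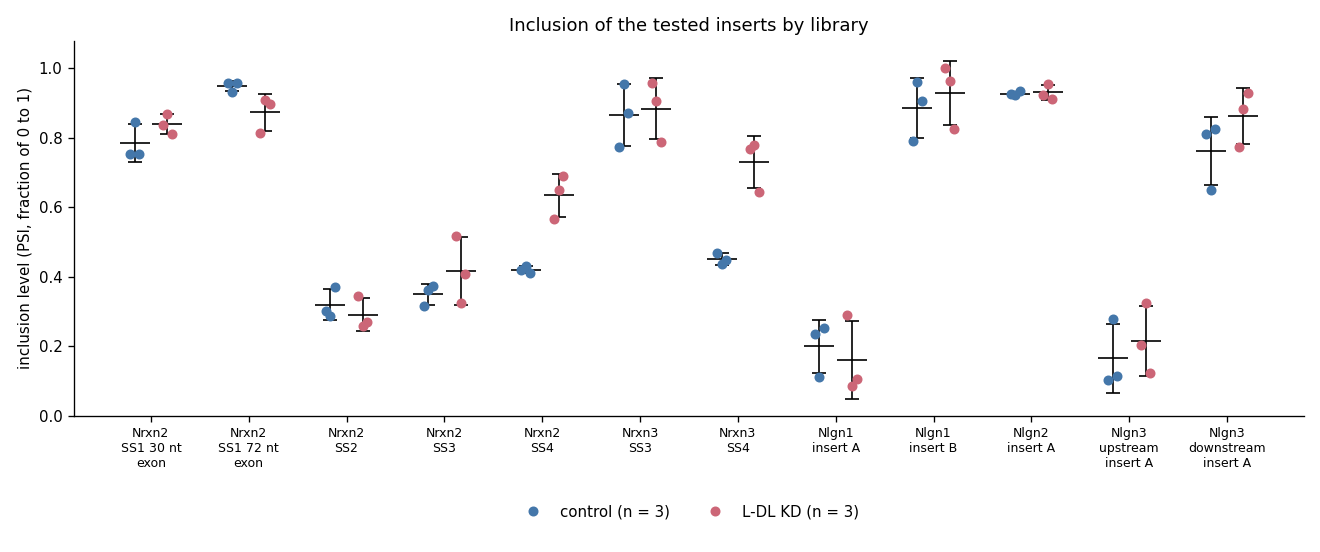
Inclusion level (PSI, 0 to 1) of 12 tested inserts of the neurexins and neuroligins, with a point for each control (blue) and L-DL KD (red) library and lines for the mean ± SD (n = 3). The SS4 exons of Nrxn2 and Nrxn3 and the 72 nt SS1 exon of Nrxn2 are the inserts whose groups lie apart, and the SS4 exons are about 0.21 and 0.28 higher in L-DL KD libraries.

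The separate forms of SS4 were then compared, each as junction reads scaled to the library's summed junction reads (in CPM) and to the same effective length, a comparison added after the data were seen. In Nrxn2 the SS4+ form was at 29.7, 28.9 and 23.4 in control and 33.1, 38.6 and 38.7 in L-DL KD libraries. The SS4- form was at 41.3, 37.9 and 33.4 in control and 25.3, 20.9 and 17.5 in L-DL KD libraries. Both forms lay apart between the groups, SS4+ 34.5% higher and SS4- lower by a ratio of 1.77 (two-sided exact permutation p = 0.1 for each, the smallest possible), while the sum of both forms overlapped (56.9 to 71.0 against 56.2 to 59.5). In Nrxn3 the sum of both forms did not overlap, at 15.3 to 15.9 in control and 6.26 to 10.2 in L-DL KD libraries. Its SS4- form was at 8.46, 8.89 and 8.43 in control and 2.03, 2.27 and 2.24 in L-DL KD libraries, a ratio of 3.95 (exact permutation p = 0.1). The SS4+ form was at 7.45, 6.89 and 6.85 in control and 6.66, 7.96 and 4.03 in L-DL KD libraries, and these overlapped (exact permutation p = 0.7).

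**Figure D2:**
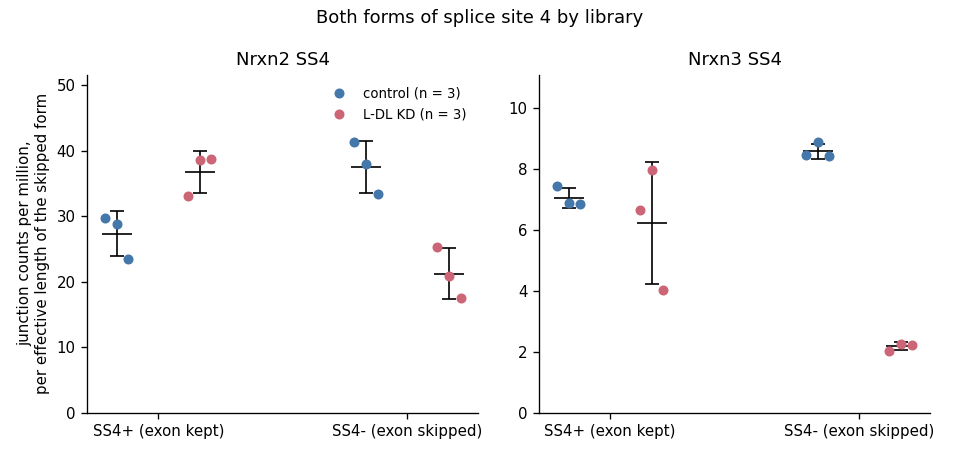
Junction reads of the form with (SS4+) and without (SS4-) the SS4 exon of Nrxn2 and Nrxn3, in CPM of all junction reads and scaled to the effective length of the skipped form, by library with mean ± SD (n = 3). In Nrxn2 the forms change order between control and L-DL KD libraries, and in Nrxn3 the SS4- form lies near 2.2 in every L-DL KD library against 8.4 to 8.9 in control.

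The other inserts of Nrxn2 did not differ at an unadjusted p under 0.05 in edgeR. At SS1, the 30 nt exon had a PSI of 0.785 ± 0.053 in control and 0.839 ± 0.030 in L-DL KD libraries (SD, n = 3). The 72 nt exon had 0.959, 0.933 and 0.957 in control and 0.813, 0.910 and 0.897 in L-DL KD libraries. Its groups lay apart, but the skipping form was at 2 to 3 reads per control library and 5 to 7 per L-DL KD library, and the edgeR change was -1.39 on the log2 scale (SE 0.71, unadjusted p = 0.073, adjusted p = 0.425). A form of the same exon with a later start also lay apart, at a mean of 0.931 against 0.822. SS2, a 24 nt exon, had a PSI of 0.320 ± 0.045 and 0.291 ± 0.048, and SS3, a 27 nt exon, 0.350 ± 0.031 and 0.417 ± 0.097. Groups overlapped for both.

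In Nrxn3, the SS3 exon was included at 0.866 ± 0.091 in control and 0.884 ± 0.088 in L-DL KD libraries, above the level of 0.350 that its Nrxn2 counterpart had in control. The 27 nt exon between SS3 and SS4 was at 0.245, 0.314 and 0.107 in control and at 0.179, 0.124 and 0 in L-DL KD libraries, with overlapping groups (edgeR adjusted p = 0.656). The last of these, with 0 inclusion reads, had 25 skipping reads. An alternative 5′ splice site that adds 9 nt was used at 0.135 ± 0.058 and 0.201 ± 0.040 (SD, n = 3, edgeR adjusted p = 0.717).

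Among the neuroligins, no insert had an unadjusted p under 0.05 in edgeR. Insert A of Nlgn2 was nearly always included, at 0.926, 0.923 and 0.934 in control and 0.925, 0.956 and 0.912 in L-DL KD libraries, a difference of 0.0035. Insert A of Nlgn1 was mostly skipped, at 0.235, 0.111 and 0.252 in control and 0.290, 0.085 and 0.107 in L-DL KD libraries. Only 2 to 9 inclusion reads per library stood behind these values, which limits what could be detected there. Insert B of Nlgn1 was mostly included, at 0.885 ± 0.086 and 0.929 ± 0.093 (SD, n = 3). In Nlgn3 the downstream exon was at 0.811, 0.651 and 0.825 in control and 0.774, 0.882 and 0.930 in L-DL KD libraries. The groups overlapped (edgeR log2 change 0.92, SE 0.67, adjusted p = 0.617). The change was 0.46 without the control library at position 2 and 1.51 without the L-DL KD library at position 1. The upstream exon was at 0.165 ± 0.098 and 0.216 ± 0.101, so the downstream exon was the main form of insert A in both groups. A mutually exclusive event that sets an exon further upstream against the downstream insert A exon lay apart, at 0.706 to 0.773 in control and 0.637 to 0.688 in L-DL KD libraries, for the share of the upstream exon (edgeR adjusted p = 0.651).

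In all, 5 of the 27 tested events had groups that did not overlap, against 18.4% of all tested events. The 25 events other than SS4 had PSI differences from -0.121 to 0.161, and unadjusted p-values of 0.0654 or more in edgeR. Their mean depth was 20 to 514 reads per library, with a median of 56.2.

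In expression, 4 of the 7 genes were lower and 0 higher at an adjusted p under 0.05 with TMM scaling, against 15.0% of all tested genes lower and 15.6% higher. Scaled to the neuronal markers, 0 of the 7 were lower and 5 higher, where 72.1% of all tested genes were higher and 1.43% lower. With TMM scaling the median log2 fold change of the 7 was -0.39, against 0.01 over all genes. Scaling to the neuronal markers moved the median of all genes up by 0.79 on the log2 scale. Nrxn3, Nlgn1, Nlgn2 and Lrrtm1 thus fell relative to the bulk of the RNA, and not relative to the mean of the 6 neuronal markers. With TMM scaling those markers ranged from a log2 fold change of -0.36 (Map2) to -1.35 (Rbfox3). Each of these 4 genes fell more than Map2 and less than Rbfox3, so the reading depends on the markers averaged. Groups did not overlap for 5 of the 7 genes, against 47.2% of all tested genes.

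Of the neurexins, Nrxn3 was the gene with the largest difference of the 7. It was at 165, 144 and 156 CPM in control and at 97.5, 109 and 62.3 CPM in L-DL KD libraries. The groups did not overlap, and L-DL KD replicate 3 was the lowest. The fold change was -0.79 on the log2 scale (SE 0.18, edgeR adjusted p = 0.0136), and without control replicate 1 the call was lost (adjusted p = 0.053). Relative to the neuronal markers its log2 fold change was -0.02 (adjusted p = 0.899). Nrxn2 was at 258, 222 and 231 CPM in control and 220, 223 and 219 CPM in L-DL KD libraries. These overlapped, with a log2 fold change of -0.10 (SE 0.07, edgeR adjusted p = 0.324).

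Of the neuroligins, Nlgn1 was at 54.7, 47.1 and 53.7 CPM in control and at 38.2, 32.7 and 29.9 CPM in L-DL KD libraries, with every L-DL KD library below every control library (log2 fold change -0.62, SE 0.11, edgeR adjusted p = 0.00444). Relative to the neuronal markers its log2 fold change was 0.16. Nlgn2 was at 309, 254 and 244 CPM and at 234, 204 and 179 CPM (log2 fold change -0.39, SE 0.12, edgeR adjusted p = 0.0454). Its groups lay apart, and the call was lost with scaling to library size (adjusted p = 0.0571) and on leaving out any single control replicate or L-DL KD replicate 2 or 3 (0.0602 to 0.150). Nlgn3 was at 46.1, 46.4 and 43.5 CPM and at 42.9, 40.0 and 41.9 CPM, apart but not called (log2 fold change -0.12, SE 0.07, edgeR adjusted p = 0.235). Its value is uncertain, since 41.2% of its exon bases are also annotated as exons of Gm21986.

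Of the Lrrtm genes, 1 passed the test. Lrrtm1 was at 86.7, 78.3 and 83.9 CPM in control and 62.8, 64.4 and 58.2 CPM in L-DL KD libraries, and fell by 0.42 on the log2 scale (SE 0.07, edgeR adjusted p = 0.00406), without overlap. Relative to the neuronal markers it was higher by 0.37. Lrrtm2 was at 53.5, 57.7 and 59.6 CPM in control and 71.0, 82.9 and 58.0 CPM in L-DL KD libraries. Its groups overlapped through L-DL KD replicate 3 (log2 fold change 0.31, SE 0.12, edgeR adjusted p = 0.0946), and without that library it passed the test (0.44, adjusted p = 0.0138), while without L-DL KD replicate 2 the value was 0.19 (adjusted p = 0.250). Both genes lie within a gene on the other strand, Ctnna2 for Lrrtm1 and Ctnna1 for Lrrtm2. Whether counting used strand is not given in the sources used here, so reads from the host could be counted on them.

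**Figure D3:**
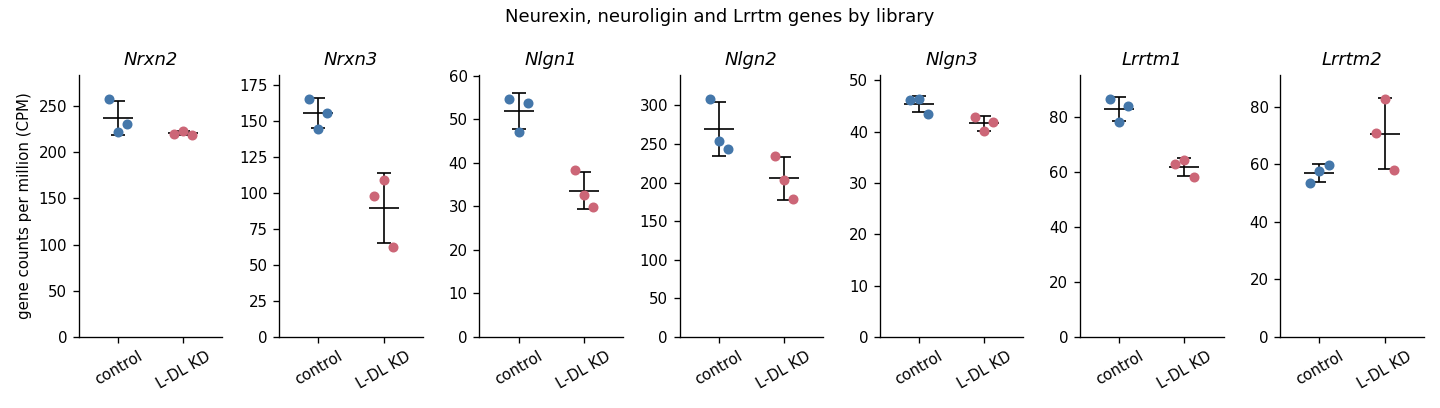
Gene counts in CPM by library for the 7 genes, each on its own axis from 0, with points for the libraries and lines for the mean ± SD (n = 3). Nrxn3, Nlgn1, Nlgn2 and Lrrtm1 were lower in L-DL KD libraries at an adjusted p under 0.05 with TMM scaling, and not when scaled to the neuronal markers.

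The level of the 7 genes can be compared only per length. In CPM per kilobase of exon, the order in control was Nlgn2 (46.5 ± 6.03, SD, n = 3), Lrrtm1 (27.3 ± 1.42), Nrxn2 (17.2 ± 1.36), Nrxn3 (12.3 ± 0.83), Lrrtm2 (9.45 ± 0.52), Nlgn3 (4.89 ± 0.17) and Nlgn1 (3.86 ± 0.31), and no neighbouring pair overlapped between the control libraries. In L-DL KD libraries Nrxn3 (7.11 ± 1.93) and Lrrtm2 (11.7 ± 2.06) exchanged places. The order depends on the length used: with the coding length, 3 of 7 ranks stayed, and with the longest transcript 5 of 7.

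Of 33 partner genes tested, 13 (39.4%) were lower and 3 (9.09%) higher at an adjusted p under 0.05, against 15.0% and 15.6% of all tested genes, with a median log2 fold change of -0.24 against 0.01. Scaled to the neuronal markers, 5 (15.2%) were lower and 19 (57.6%) higher, against 1.43% and 72.1% of all tested genes. Among 21 extracellular partners, 8 were lower and 3 higher with TMM scaling. Cbln2, a cerebellin that binds neurexins with the SS4 insert, had a log2 fold change of -1.53 (edgeR adjusted p = 0.00204). Nxph1, a neurexophilin that binds the neurexin ectodomain, had -1.33 and Mdga1, which masks neuroligins, -1.66. Clstn3 and Grid1, the calsyntenin and the glutamate receptor delta relative that take part in neurexin complexes, had -0.75 and -0.60. The other 3 that were lower, Nxph3, Clstn1 and Lhfpl4, had -0.93, -0.29 and -0.32. The Clstn1 call was lost on leaving out any single control replicate or L-DL KD replicate 3 (edgeR adjusted p = 0.0531 to 0.124), and that of Lhfpl4 without control replicate 1 or 2 or L-DL KD replicate 2 or 3 (0.0739 to 0.0987). Higher were Nxph4 (1.75), Gpc4 (0.68), a glypican, and Dag1 (0.19), dystroglycan. The Dag1 call was lost without a filter on low counts (edgeR adjusted p = 0.106) and on leaving out any single library other than L-DL KD replicate 1 (0.0636 to 0.150). The levels of Nxph4 were low, at means of 0.805 and 2.72 CPM. Across all lists, the 17 partners that were not called lay between -0.65 and 0.49 on the log2 scale.

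Of 9 cytoplasmic partners, 4 were lower and 0 higher with TMM scaling, against the same background of 15.0% and 15.6%. Apba1, the Mint1 adaptor of the presynaptic side, had a log2 fold change of -1.08, Gphn, gephyrin of inhibitory synapses, -0.91, Magi2 -0.63 and Dlg4, PSD-95, -0.46. Cask, which binds the neurexin tail, was at a log2 fold change of 0.02. Lin7a, Lin7b and Lin7c were at -0.10, -0.65 and 0.01, none of them called. The groups of Lin7b lay apart (edgeR adjusted p = 0.0814). Scaled to the neuronal markers, Cbln2, Nxph1, Mdga1, Apba1 and Khdrbs3 were the 5 genes of the whole list that stayed lower.

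Khdrbs3 was the single STAR family gene of 3 that fell, from a mean of 129 CPM to 56.6 CPM (log2 fold change -1.19, SE 0.11, edgeR adjusted p = 0.000294). Scaled to the neuronal markers its log2 fold change was -0.41. Khdrbs1 and Khdrbs2 had log2 fold changes of 0.10 and 0.17 (adjusted p = 0.287 and 0.561). Whether the level of Khdrbs3 bears on the SS4 values was not tested.

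**Figure D4:**
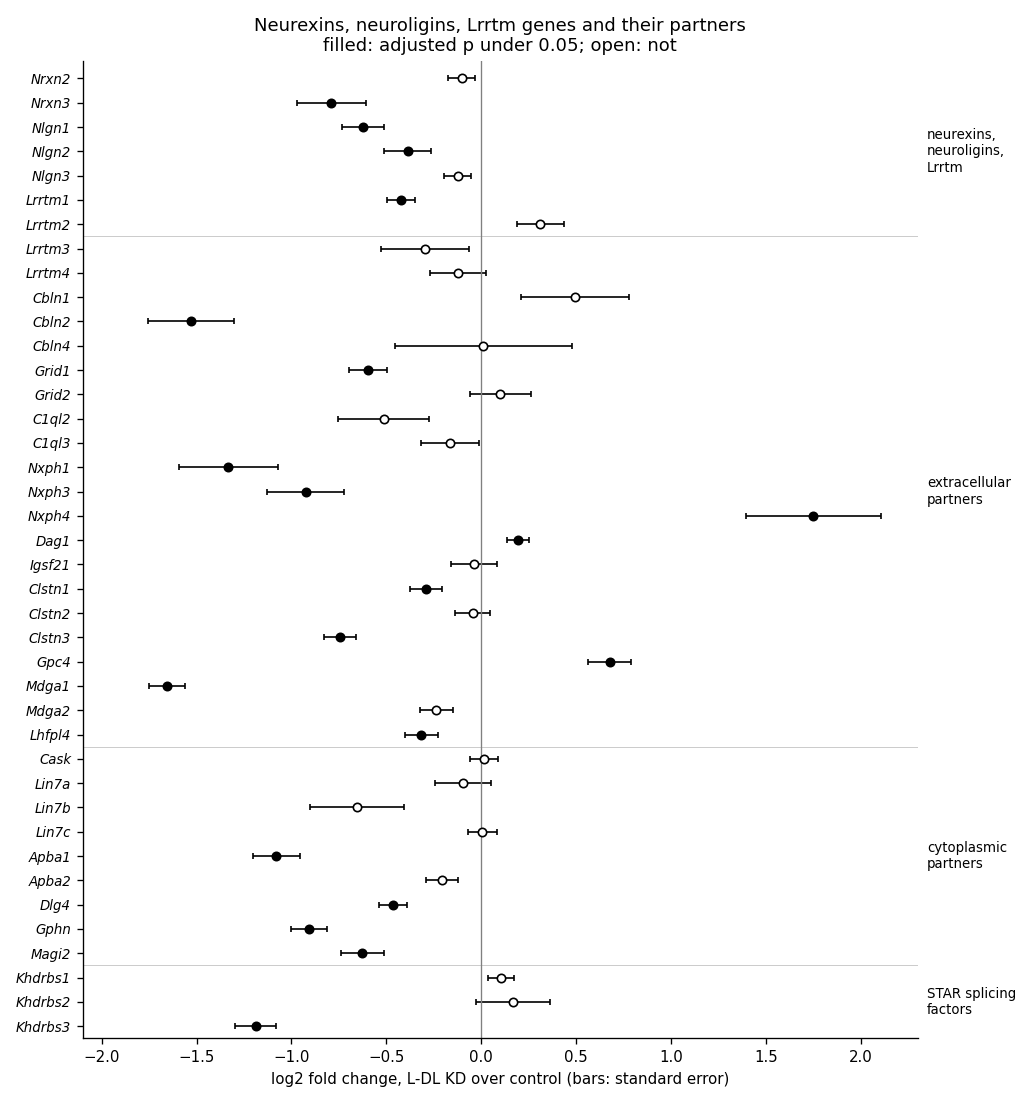
Log2 fold change of L-DL KD over control libraries with its standard error for the 7 genes and 33 partner genes, TMM-scaled, from edgeR. Filled points passed an adjusted p under 0.05 and open points did not, and 4 of 7 genes and 13 of 33 partners lay below 0 with a filled point. Scaling to the neuronal markers raises the median of all genes by 0.79, and then 72.1% of all genes, 5 of the 7 and 19 of the 33 partners are higher.

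The genes whose pattern over the 6 libraries was closest to each of the 7 were found by the root mean square difference of centred log2 CPM among genes with a mean of at least 10 CPM. They were Mast1 and Ccdc88c for Nrxn2 (0.025 and 0.026), Akap5 and Cybrd1 for Nrxn3 (0.029 and 0.061), and Mpv17l and Cacnb2 for Nlgn1 (0.025 and 0.029). For Nlgn2 they were Zfp827 and Rcan3 (0.037 and 0.038), for Nlgn3 Ube2f and Smurf2 (0.020 and 0.022), for Lrrtm1 Mink1 and Disp2 (0.028 and 0.029), and for Lrrtm2 Sox6 and Pdcd4 (0.055 and 0.060). No member of the 7 was among the nearest genes of another.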

How the data were processed

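The authors deposited raw gene counts and the junction counts of rMATS, which per the labels were made from mm10 (GRCm38) with HISAT2 (2.1.0), Bowtie (1.1.2) and HTSeq (0.6.1) named in the submitters' processing notes, and no normalization. Whether counting used strand is not given in the sources used here. The rMATS file also holds the authors' PSI as a fraction, p-values, FDR and differences. None of these values was tested or printed, but the order of the groups in the difference column told which group is which. Fold changes on the log2 scale and PSI were computed here. Gene counts were tested by edgeR (4.0.16) quasi-likelihood with TMM scaling where 3 or more libraries had 10 or more counts. Inclusion and skipping counts were tested in 1 edgeR model with an effect per library and the change of inclusion with group, for events with a mean of at least 20 reads per library. p-values were adjusted over all features. The named genes were the 7 genes, Hnrnpdl, the fixed partner list, events with an unadjusted p under 0.05 and known inserts, and the 2 genes nearest in pattern to each member. Further events whose groups lay apart were named after their values were seen. Sequences are printed for some inserts only, and 1 partner gene of the list is not reported here. Members and lists were chosen with earlier results of these data known. Alternatives were scaling by library size or neuronal markers, DESeq2 (1.42.0), limma (3.58.1), other filters, lengths, a replicate block and single libraries left out. Both models were tested on simulated data. Sequences and lengths came from GENCODE on GRCm38. Work was done in R (4.3.3) and Python (3.11.15).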

Additional observations from a re-analysis of the deposited data

How the results depend on the processing

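Limits: 3 libraries a group, unequal cell type markers, an unmeasured isoform and few reads at some inserts bound what could be seen. Scaling to the 6 neuronal markers gave 5 genes higher and 0 lower of the 7, 19 higher and 5 lower of the partners (72.1% of all genes were higher and 1.43% lower), and 0.81 for Hnrnpdl (log2, past the threshold). It reversed Nrxn2 (0.69), Nlgn1 (0.16), Nlgn2 (0.39), Nlgn3 (0.67), Lrrtm1 (0.37), Grid1 (0.19), Clstn1 (0.50), Clstn3 (0.039), Lhfpl4 (0.47), Dlg4 (0.33) and Magi2 (0.16). The cause was not tested. Leaving out each library gave 0 to 1 genes higher and 2 to 4 lower of the 7 (2 without control replicate 1, 1 higher without L-DL KD replicate 3), 2 to 3 higher and 11 to 15 lower of the partners, and Hnrnpdl from -0.13 to 0.15. It gave 0 to 1 events past the adjusted threshold and 2 to 3 past the unadjusted one, log2 changes from -0.15 to 1.01 at SS3 of Nrxn3, -1.18 to 0.074 at insert A of Nlgn1 and -0.16 to 0.28 at insert A of Nlgn2, and -0.037 to 0.31 for Khdrbs2. By limma, 4 of the 27 tested events had an unadjusted p under 0.05 and 0 an adjusted one, against 2377 and 0 of all 18829 tested events. With the coding length, 3 ranks of level stayed. Deviations of log CPM from the group mean correlated at 0.054, 0.13 and -0.11 between same-numbered libraries. Between libraries of unlike number they correlated at -0.18 to 0.12. Whether the replicate numbers mark paired mice is not given in the sources used here, and these values cannot decide it. With the replicate numbers as a block, 4 genes were lower and 0 higher of the 7, 12 partners lower and 2 higher (Dag1 and Clstn1 lost, edgeR adjusted p = 0.0803 and 0.0572). Hnrnpdl was then at 0.01, and over all genes 4635 were called against 5379. For splicing, no paired analysis was possible because its columns carry no replicate numbers.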
